A study of Mus musculus with 7 samples.

Results

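Neural stem cells (NSC) carrying the genotype labelled Tet-TFoCa (TFoCa) were compared with wild-type (WT) neural stem cells over all genes measured by RNA sequencing. The comparison holds 5 of the 7 mouse libraries in the series, 3 from WT lines and 2 from TFoCa lines, each line separate and at passage 1 per the design text. The other 2 libraries, from lines labelled Tet-TMut (TMut), served to estimate the spread between lines. The design text writes Tet-FoCa for the same genotype. Neither source gives the alleles, the strain, the age of the embryos or animals, or the oxidation step that each genotype affects, and with 2 lines the TFoCa genotype is modelled by few independent cultures. The authors' table lists 18145 genes, of which 18134 were tested, and the description is centred on genes outside the pluripotency, cell cycle and extracellular matrix lists.

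TET enzymes oxidise 5-methylcytosine in DNA stepwise to 5-hydroxymethylcytosine, 5-formylcytosine and 5-carboxylcytosine, and the last 2 forms can be excised and replaced by unmodified cytosine. The series title sets hydroxymethylation against formylation and carboxylation. Neural stem cells in culture divide in response to growth factors acting on receptor tyrosine kinases, and they keep transcription factors of the brain region they came from. They also secrete and receive cytokines, Wnt proteins and other signals that act between neighbouring cells.

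Levels are normalized counts, which are reads per gene divided by the size factor of the library, and are given in the order WT lines 1, 2 and 3, then TFoCa lines 1 and 2. Differences are log2 fold changes of TFoCa over WT with their standard error from limma (n = 3 WT and 2 TFoCa lines), with a pseudocount of 1, which understates the change of genes with low levels. A gene was called, and is said to have risen or fallen, at a Benjamini-Hochberg adjusted p under 0.05 over all genes tested. A call is named firm where it also held, in the same direction, in each of the 7 fits that leave out 1 library and in 5 other fits (a pseudocount of 8, TMM factors, edgeR, DESeq2 and a fit to the 2 genotypes alone).

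Between 33340167 and 62545457 reads per library were counted in genes. The levels of Tet1 (1546, 1638 and 1547 in WT, 1355 and 1367 in TFoCa), Tet2 (1526, 1564 and 1791 against 4237 and 2117) and Tet3 (5484, 5999 and 6642 against 7283 and 6159) did not pass the test, and a gene count cannot check an allele that leaves the transcript in place. The 2 TFoCa lines stood apart in Y-linked RNA: Ddx3y was at 370, 274 and 231 in WT, 94.8 in TFoCa line 1 and 3152 in TFoCa line 2, while Xist was at 12.6 or less in all 5 lines. By definition a firm call held with either TFoCa line left out, and each of those fits rests on a single TFoCa line. The part of this difference between the lines in the results was not tested. Neural stem cell markers summed to between 211687 and 219008 in WT and to 180273 and 193192 in TFoCa. Of 15 tested members 0 rose and 2 fell (Sox1 and Sox2, neither firm), and the median log2 fold change was -0.54. Vim, the highest member, went the other way from the sum. It was at 65556, 66949 and 70733 in WT and 84912 and 88637 in TFoCa, so the sum understates the fall of the other members together. Fibroblast and meningeal markers summed to 141246 to 152278 in WT and 342430 and 383218 in TFoCa, with 8 of 10 higher. Pluripotent stem cell markers summed to 12569, 25975 and 15582 in WT and 949 and 1175 in TFoCa, with 8 of 8 lower. Muscle markers summed to 3846, 2298 and 3357 in WT and 8778 and 26557 in TFoCa, with 6 of 7 higher. Over all genes tested, 5.25% were called higher and 3.52% lower. Of 8 microglia and blood markers only Tmem119 is in the table (453, 465 and 453 in WT, 943 and 366 in TFoCa), and endothelial markers summed to 2035 to 2456 in WT and 2160 and 864 in TFoCa. In bulk RNA, a change in the number of cells of a type cannot be told apart from a change in RNA per cell, and the part of these marker shifts in the results was not tested.

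**Figure D1:**
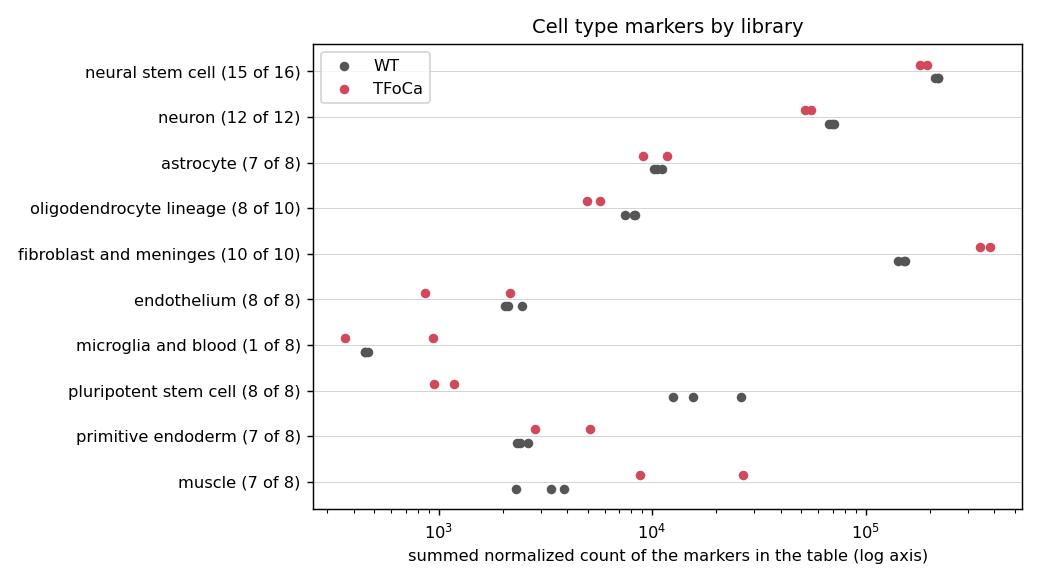
Summed normalized count of each cell type's markers (log axis) in each WT (grey) and TFoCa (red) library, with the number of listed markers in the table. The TFoCa points lie above the WT points for fibroblast, muscle and primitive endoderm markers and below them for pluripotent, neural stem cell, neuron and oligodendrocyte lineage markers. A sum can follow a few abundant members. Of 7 tested primitive endoderm markers 1 rose and 0 fell (median log2 fold change -0.05). Of 8 oligodendrocyte lineage markers 1 rose and 0 fell (median 0.08), and of 12 neuron markers 0 rose and 0 fell (median -0.21).

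In all, 1590 genes were called (8.77% of those tested), of which 952 rose in TFoCa (5.25%) and 638 fell (3.52%), and the median log2 fold change of all tested genes was -0.02. Of these calls 446 (2.46% of genes tested) were firm, 344 rises (1.9% of genes tested) and 102 falls (0.562%), so the firm rule kept a larger share of rises (36.1%) than of falls (16%). Outside the pluripotency, cell cycle and matrix lists 893 genes rose and 547 fell, of which 308 and 69 were firm. In all 952 rises and all 638 falls the WT and TFoCa libraries did not overlap. Separate ranges therefore come with every call given here and add no support to it. The counts were smallest without WT replicate 2, at 375 rises and 120 falls.

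**Figure D2:**
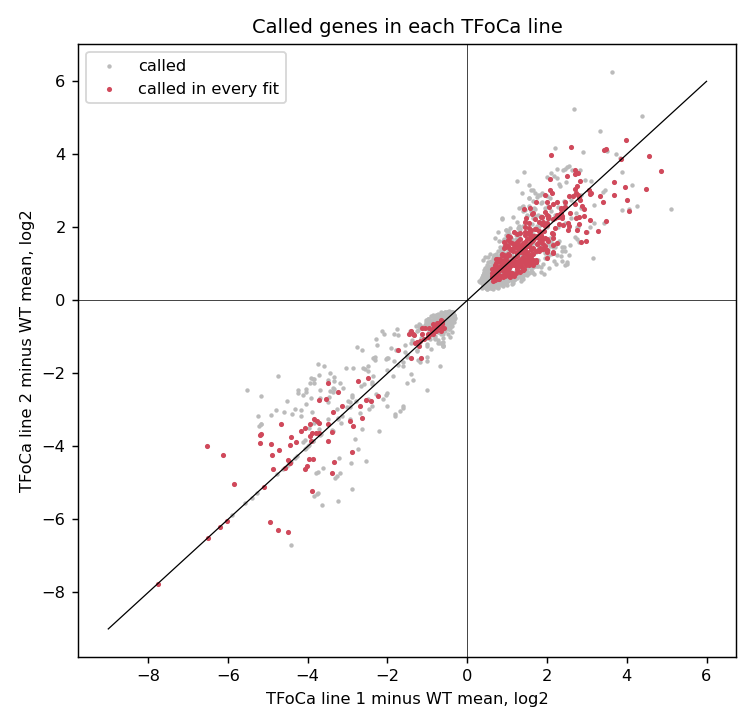
Each called gene's difference from the WT mean (log2) in TFoCa line 1 (horizontal) and line 2 (vertical), with firm calls in red and the diagonal marking equal change. The 2 lines differed by more than 1 log2 unit in 78 of 952 genes that rose and 80 of 638 that fell, against 2469 of all 18134 tested. A call favours genes with little spread within a genotype, so the smaller shares among called genes follow in part from the selection.

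The functions with the largest shares of higher genes were extracellular proteolysis and coagulation, targets of the TEAD and SRF transcription factors, cytokines, growth factors of the neurotrophic and platelet families, and the EGF family. The lists with the largest shares of lower genes were splicing factors, nucleotide synthesis and DNA repair. Over the 35 function lists, 1637 genes were tested and 83 had firm calls. Genes of the pluripotency, cell cycle and matrix lists were not removed from the function lists. The shares of a function list can therefore include such genes.

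**Figure D3:**
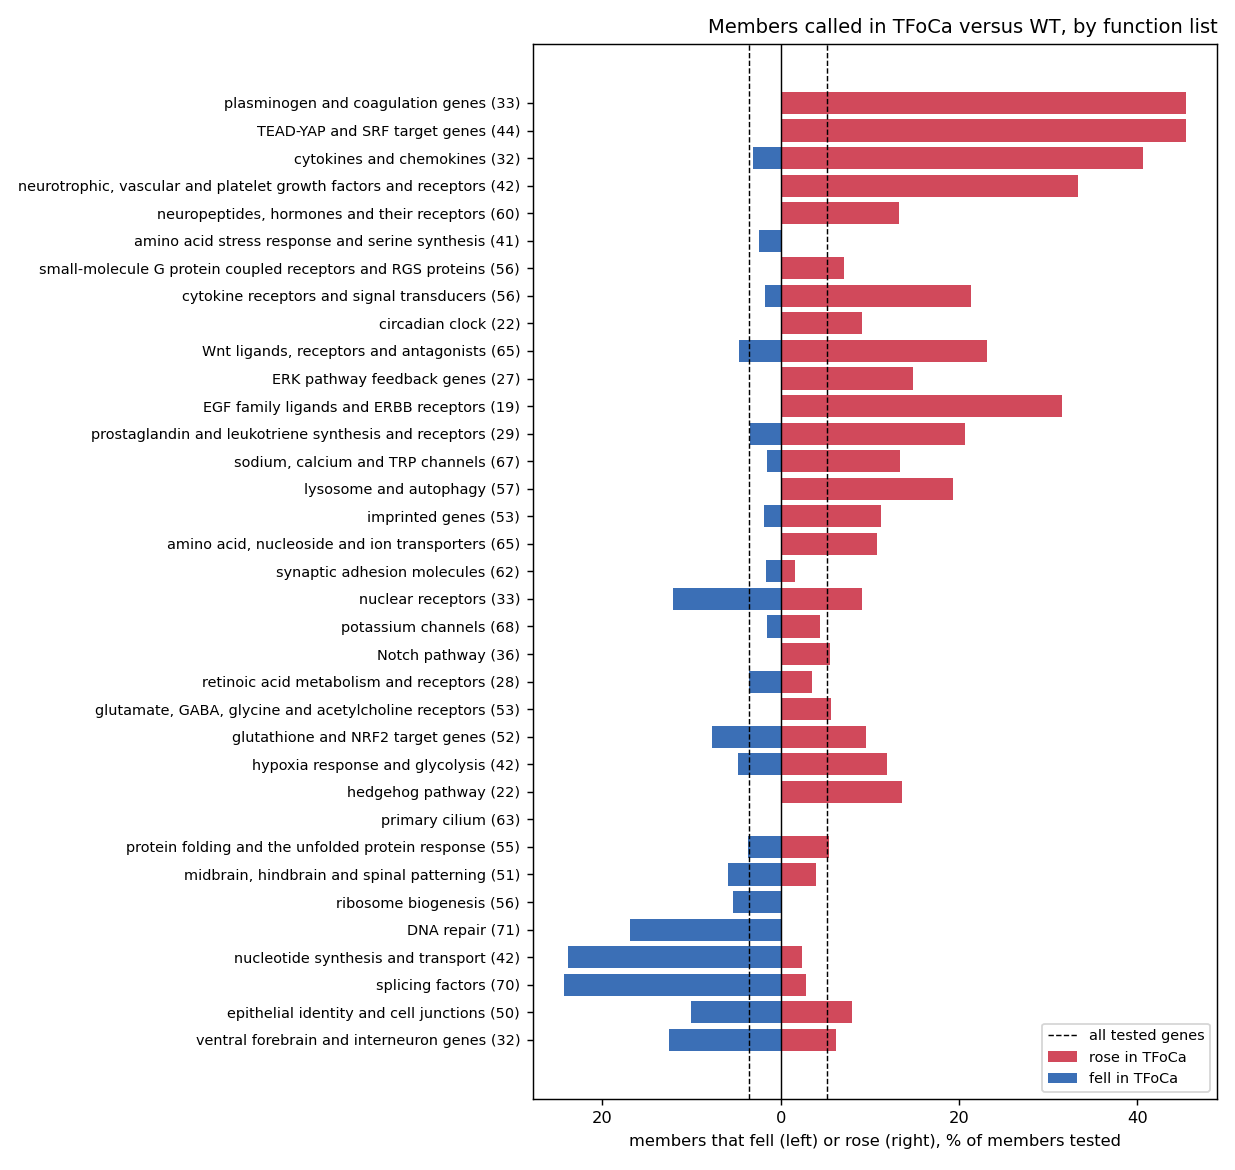
Share of tested members of each function list (number in brackets) that fell, drawn to the left, or rose, drawn to the right, in TFoCa versus WT, with lists ordered by their median log2 fold change. Dashed lines mark the shares over all genes tested, 3.52% lower and 5.25% higher. Members rose in 45.5% of the plasminogen and of the TEAD-YAP and SRF lists, and 24.3% of splicing factors fell. Members that are also in the pluripotency, cell cycle or matrix lists are included.

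Promoter sequence is shown for 3 genes that the results turn on, a chemokine and an EGF receptor ligand that were among the largest rises and the muscle regulator Myog. Each line is the 250 bases before the RefSeq start of the gene (GRCm38.p6, plus strand, 5′ to 3′), at chr5:91139349-91139598 for Areg, chr5:90794284-90794533 for Cxcl15 and chr1:134289754-134290003 for Myog. Capitals mark TATAAA and GACGTC in the 2 ligand genes and CANNTG in Myog.
Areg: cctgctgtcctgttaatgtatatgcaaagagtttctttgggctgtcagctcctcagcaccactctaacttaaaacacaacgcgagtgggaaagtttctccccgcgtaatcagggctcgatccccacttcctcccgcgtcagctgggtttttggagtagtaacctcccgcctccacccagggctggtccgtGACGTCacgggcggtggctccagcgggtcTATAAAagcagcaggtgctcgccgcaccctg
Cxcl15: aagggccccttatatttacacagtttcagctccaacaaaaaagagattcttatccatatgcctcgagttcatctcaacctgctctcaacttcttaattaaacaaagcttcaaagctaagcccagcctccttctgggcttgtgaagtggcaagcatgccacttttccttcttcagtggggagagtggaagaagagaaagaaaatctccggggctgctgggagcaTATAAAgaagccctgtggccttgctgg
Myog: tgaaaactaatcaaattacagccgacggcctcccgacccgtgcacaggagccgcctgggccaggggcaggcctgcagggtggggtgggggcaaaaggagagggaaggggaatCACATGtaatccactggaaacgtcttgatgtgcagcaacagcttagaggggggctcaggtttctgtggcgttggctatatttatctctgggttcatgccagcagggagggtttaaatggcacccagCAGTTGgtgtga
TATAAA, the TATA box, lay 31 to 26 bases before the start of Areg and 27 to 22 before that of Cxcl15, and 12.4% of 32851 windows of the same length held it on either strand. GACGTC, the core of the cyclic AMP response element, lay 60 to 55 bases before the start of Areg, and 3.77% of windows held it. TGANTCA, the AP-1 motif, was searched in the Areg and Cxcl15 windows and its letters were in neither (6.75% of windows held it). CANNTG, the E-box that muscle basic helix-loop-helix proteins bind, was searched in Myog alone and lay at 138 to 133 and 12 to 7 bases before its start, while 66.2% of windows held it. None of these motifs overlap each other here, and binding or methylation at them was not analysed here.

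Among the EGF family, 6 of 19 tested ligand, receptor and processing genes rose and 0 fell (31.6% against 5.25% of all genes, median 0.24), and 5 of the rises were firm. Areg, which encodes the EGF receptor ligand amphiregulin, was at 12.6, 22.8 and 18.4 in WT and 284 and 157 in TFoCa (3.53 ± 0.37, adjusted p = 0.00319). Hbegf, which encodes another ligand of the receptor and is named after its values were seen, was at 118, 188 and 197 in WT and 861 and 689 in TFoCa (2.23 ± 0.25, adjusted p = 0.00394). Egfr, the receptor gene, was at 570, 574 and 657 in WT and 1649 and 2083 in TFoCa (1.63 ± 0.16, adjusted p = 0.00274). Both ligands and their receptor were thus higher in both TFoCa lines than in any WT line, with the lowest TFoCa value of Areg several times the highest WT value. Rhbdf1, an inactive rhomboid that takes part in the release of EGF family ligands, was at 2356, 2338 and 2350 in WT and 5041 and 6254 in TFoCa (1.26 ± 0.12, adjusted p = 0.00242). Lrig3, of a family of transmembrane proteins that act on receptor tyrosine kinases, was at 1372, 1517 and 1539 in WT and 4016 and 3638 in TFoCa (1.37 ± 0.10, adjusted p = 0.00163). The groups did not overlap for either gene. Of 27 genes that feed back on the ERK pathway downstream of such receptors, 4 rose and 0 fell (14.8%, median 0.25), and 2 rose without WT replicate 2. The firm one was Phlda1, an early response gene (3686, 3665 and 3383 in WT, 7134 and 6652 in TFoCa, 0.95 ± 0.10, adjusted p = 0.00319).

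Of 53 listed cytokine and chemokine genes 32 were tested, of which 13 rose and 1 fell (40.6% and 3.12%, median 0.73), 6 of them firm, and 8 rose without WT replicate 2. Cxcl15, a chemokine gene, was at 12.6, 7.61 and 4.60 in WT and 204 and 133 in TFoCa (4.25 ± 0.49, adjusted p = 0.00408), from 32 reads in all WT libraries and 322 in TFoCa. Il33, which encodes an alarm cytokine held in the nucleus of barrier and glial cells, was at 120, 194 and 191 in WT and 1745 and 1072 in TFoCa (3.05 ± 0.32, adjusted p = 0.00319). Lif, the leukaemia inhibitory factor gene, was at 136, 139 and 140 in WT and 410 and 487 in TFoCa (1.68 ± 0.21, adjusted p = 0.00558). All of these ranges were separate, and the 3 WT lines lay close together for Lif. Spp1, which encodes the secreted phosphoprotein osteopontin, was at 1429, 2380 and 2357 in WT and 10181 and 11290 in TFoCa (2.42 ± 0.22, adjusted p = 0.00219). Outside the list, Tnfsf18, which encodes the TNF family ligand of the receptor GITR, was at 57.3, 72.9 and 89.7 in WT and 787 and 1259 in TFoCa (3.77 ± 0.43, adjusted p = 0.00408).

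Of 56 tested receptors and transducers for such signals, 12 rose and 1 fell (21.4% and 1.79%, median 0.32), 6 firm, and 6 rose without WT replicate 2. Tnfrsf12a, the receptor of the cytokine TWEAK, was at 344, 354 and 398 in WT and 1462 and 1182 in TFoCa (1.85 ± 0.15, adjusted p = 0.00199). Il11ra1, the interleukin 11 receptor chain, was at 1122, 1094 and 1143 in WT and 2128 and 2289 in TFoCa (0.98 ± 0.10, adjusted p = 0.0033). The WT lines were within a narrow range for both genes and the TFoCa lines stood above it. Stat3, the transcription factor activated by cytokines of the interleukin 6 family, was at 4071, 4275 and 3993 in WT and 7282 and 8982 in TFoCa (0.98 ± 0.12, adjusted p = 0.00498). Socs3, which encodes an inhibitor of that signal and is a STAT3 target, was at 1581, 1288 and 1248 in WT and 3640 and 3688 in TFoCa (1.42 ± 0.15, adjusted p = 0.00319). The other firm members, named after their values were seen, were the receptor genes Osmr (2.06 ± 0.35, adjusted p = 0.0137) and Il1r1 (2.36 ± 0.38, adjusted p = 0.012). The 1 lower member, Kit, did not pass with WT replicate 2 or 3 left out (adjusted p = 0.0605 and 0.0576).

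The prostaglandin pathway showed 2 firm rises at its first steps. Pla2g4a, the phospholipase that frees arachidonic acid from membranes, was at 110, 87.5 and 104 in WT and 510 and 523 in TFoCa (2.36 ± 0.22, adjusted p = 0.00242). Ptgs2, the inducible cyclooxygenase that converts it, was at 73.7, 94.4 and 136 in WT and 1564 and 2058 in TFoCa (4.18 ± 0.27, adjusted p = 0.00124). For both genes the TFoCa lines lay far above the WT lines. Of 29 tested genes of the list 6 rose and 1 fell (20.7% and 3.45%, median 0.24), and 2 rose without WT replicate 2. Ptgs1, Ptger4 and Ptgis, named after their values were seen, lost their calls when a WT library was left out, with adjusted p values of 0.0815, 0.142 and 0.0941 without WT replicate 2.

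Of 42 neurotrophic, vascular and platelet growth factor genes and their receptors, 14 rose and 0 fell (33.3%, median 0.56), 5 of them firm, and 5 rose without WT replicate 2. Pdgfb, a platelet-derived growth factor gene, was at 65.1, 67.2 and 63.3 in WT and 364 and 386 in TFoCa (2.51 ± 0.21, adjusted p = 0.00207). Ntf3, which encodes neurotrophin-3, was at 83.9, 115 and 127 in WT and 619 and 470 in TFoCa (2.32 ± 0.24, adjusted p = 0.00313). Gfra2, a receptor for the neurturin family, was at 537, 601 and 686 in WT and 2420 and 1341 in TFoCa (1.57 ± 0.24, adjusted p = 0.0102). No WT line reached a TFoCa line in any of them, and TFoCa line 1 was the higher for Ntf3 and Gfra2. The imprinted Igf2r, which clears IGF2 and carries lysosomal enzymes, was at 8770, 9251 and 10582 in WT and 17626 and 15450 in TFoCa (0.80 ± 0.12, adjusted p = 0.00996). Bdnf, the fifth firm member, is named after its values were seen (1.76 ± 0.29, adjusted p = 0.0128). Outside the list, Inhba, which encodes a subunit of activin, was at 37.7, 63.4 and 87.4 in WT and 1737 and 708 in TFoCa (4.20 ± 0.46, adjusted p = 0.00358). Igfbp3, which encodes an insulin-like growth factor binding protein, was at 2754, 3818 and 4106 in WT and 15240 and 27034 in TFoCa (2.53 ± 0.25, adjusted p = 0.0029). The TFoCa lines were separate from WT in both genes and differed from each other, line 1 being the higher in Inhba and line 2 in Igfbp3.

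**Figure D4:**
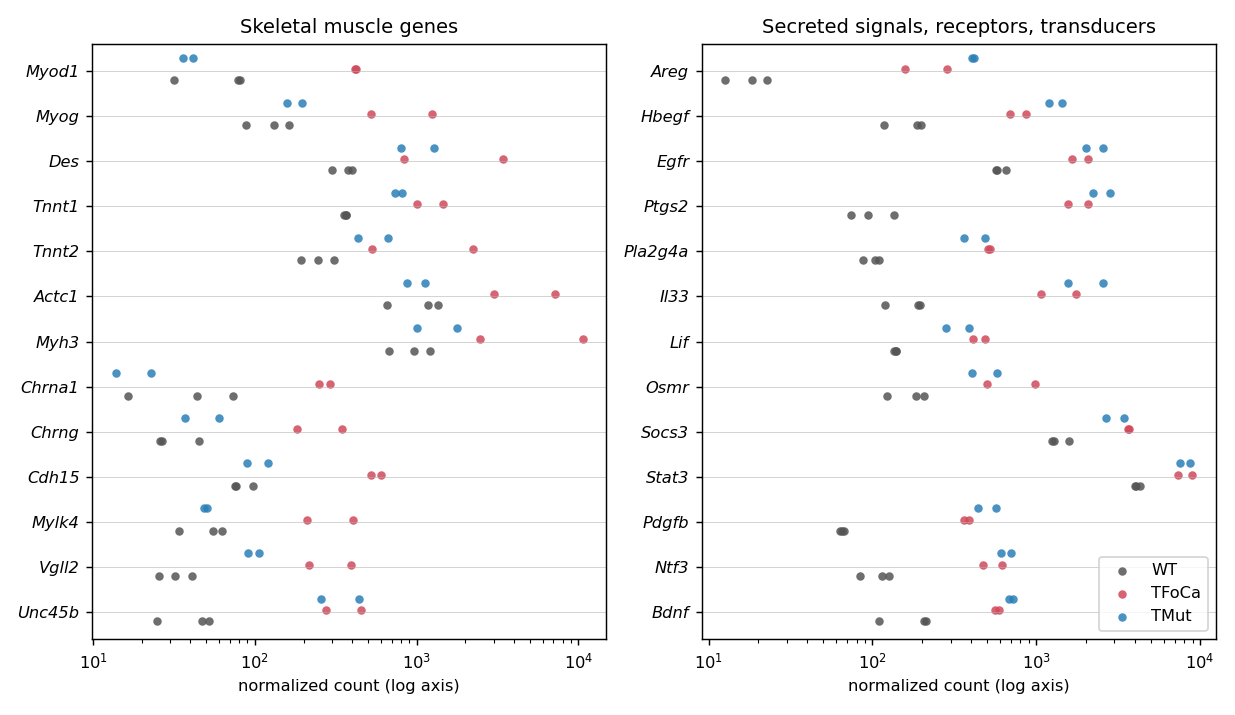
Normalized counts (log axis) of skeletal muscle genes and of signalling genes in each WT (grey), TFoCa (red) and TMut (blue) library, genes chosen for display after their values were seen. Myod1 lay at 418 and 419 in the TFoCa lines and between 31.7 and 80.5 in the 5 other lines, while Areg was higher than in WT in the 2 TFoCa and in the 2 TMut lines.

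Among genes bound and activated by TEAD-YAP or by SRF, which respond to cell spreading and actin assembly, 20 of 44 rose and 0 fell (45.5%, median 0.81). Of the rises 12 were firm, and 12 genes rose without WT replicate 2. Fhl2, a LIM domain cofactor, was at 359, 344 and 322 in WT and 1260 and 1456 in TFoCa (1.99 ± 0.13, adjusted p = 0.00124). Tagln2, an actin-binding protein of the transgelin family, was at 2744, 2889 and 2887 in WT and 7083 and 7690 in TFoCa (1.38 ± 0.09, adjusted p = 0.00124). Tgfb2, a TGF-beta ligand gene, was at 1326, 1127 and 1202 in WT and 3840 and 2963 in TFoCa (1.47 ± 0.14, adjusted p = 0.00242). Zyx, which encodes the focal adhesion protein zyxin, was at 4695, 4789 and 4588 in WT and 8713 and 9163 in TFoCa (0.93 ± 0.09, adjusted p = 0.00242). In each of these 4 genes the WT lines were tightly grouped and the TFoCa lines were higher. The rises of the fibroblast marker sum and of these genes occurred in the same 2 lines, and the part of the former in the latter was not tested.

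The plasminogen and coagulation list, which holds proteases, their serpin inhibitors and annexins, had 15 of 33 tested members higher and 0 lower (45.5%, median 0.95). It had 8 firm members, and 9 members rose without WT replicate 2. Anxa1, Anxa3 and Anxa6 encode annexins, which bind membrane phospholipids in the presence of calcium. Anxa3 was at 124, 103 and 104 in WT and 727 and 534 in TFoCa (2.50 ± 0.24, adjusted p = 0.00242), and Anxa1 at 873, 799 and 1033 in WT and 3214 and 4382 in TFoCa (2.06 ± 0.17, adjusted p = 0.00193). Anxa6 was at 5784, 4923 and 4847 in WT and 13165 and 13580 in TFoCa (1.37 ± 0.12, adjusted p = 0.00218). Serpine2, which encodes an inhibitor of thrombin and plasminogen activators, was at 7120, 7959 and 6983 in WT and 16780 and 15142 in TFoCa (1.12 ± 0.11, adjusted p = 0.00242). All were higher in both TFoCa lines, by about the same amount in each for Anxa6 and Serpine2. The members that activate the cascade included Plau, the urokinase gene (1.68 ± 0.22, adjusted p = 0.00615), and F3, the tissue factor gene (0.99 ± 0.13, adjusted p = 0.00591), both named after their values were seen.

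Several genes of skeletal muscle rose in TFoCa. Myod1 and Myog encode transcription factors of the muscle lineage. Myod1 was at 78.5, 31.7 and 80.5 in WT and 418 and 419 in TFoCa (2.81 ± 0.43, adjusted p = 0.0102). Myog was at 163, 88.1 and 131 in WT and 525 and 1251 in TFoCa (6.51-fold from the fit, standard error 0.41 log2 units, adjusted p = 0.01). Both calls were firm, and the TFoCa lines were nearly equal in Myod1 and apart in Myog, where line 2 was the higher. Unc45b, a myosin chaperone of muscle, was at 51.8, 24.7 and 47.2 in WT and 274 and 453 in TFoCa (3.13 ± 0.42, adjusted p = 0.00711). Vgll2, a TEAD cofactor of skeletal muscle, was at 40.8, 25.4 and 32.2 in WT and 216 and 394 in TFoCa (3.14 ± 0.36, adjusted p = 0.00408). The following firm genes are named after their values were seen. Cdh15, the muscle cadherin gene, was at 76.9, 75.4 and 97.8 in WT and 521 and 601 in TFoCa (2.74 ± 0.25, adjusted p = 0.00242). Chrng, the embryonic subunit of the muscle acetylcholine receptor, was at 25.9, 26.6 and 44.9 in WT and 182 and 344 in TFoCa (2.96 ± 0.43, adjusted p = 0.00942). Mylk4, a myosin light chain kinase family gene, was at 62.8, 34.2 and 55.2 in WT and 210 and 407 in TFoCa (2.55 ± 0.40, adjusted p = 0.0108). In all of them the lowest TFoCa line was above the highest WT line.

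Contractile genes were among the muscle markers that rose. Myh3, the embryonic myosin heavy chain, was at 1205, 678 and 957 in WT and 2477 and 10661 in TFoCa, and Actc1, the cardiac actin also made in embryonic skeletal muscle, was at 1349, 655 and 1183 in WT and 2993 and 7140 in TFoCa. TFoCa line 2 was the higher for both, and neither call was firm: without WT replicate 2 the adjusted p was 0.114 for Myh3 and 0.0538 for Actc1, and without TFoCa replicate 2 it was 0.0667 and 0.053. Tnnt1, the slow skeletal troponin T gene, was firm (365, 355 and 365 in WT, 998 and 1450 in TFoCa, 1.73 ± 0.18, adjusted p = 0.00311). Myf5, a listed muscle marker, is not in the authors' table and so was not analysed here.

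The muscle genes were also set against TMut, a contrast added after the data were seen, in which 18.5% of all genes were higher in TFoCa. Myod1 was at 41.5 and 36.0 in the TMut lines, and TFoCa exceeded TMut by 3.40 ± 0.47 log2 units (adjusted p = 0.0027). The difference for Myog was 2.20 ± 0.44 (adjusted p = 0.00875), that for Cdh15 was 2.42 ± 0.28 (adjusted p = 0.00179) and that for Chrng was 2.39 ± 0.47 (adjusted p = 0.00828). The TMut lines thus lay within or near the WT range for these 4 genes. Unc45b did not follow them, since it was at 255 and 438 in TMut and differed from TFoCa by 0.08 ± 0.46 (adjusted p = 0.912). The muscle marker sum was at 5290 and 4643 in the TMut lines, above every WT line and below both TFoCa lines. Its highest member, Myh3, was at 1763 and 1005 in TMut, against at most 1205 in WT.

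Of 65 Wnt ligand, receptor and antagonist genes, 15 rose and 3 fell (23.1% and 4.62%, median 0.25), 7 of them firm, and without WT replicate 2 the counts were 7 and 0. Among those named by rule were antagonists or modulators of the pathway. Sostdc1, a secreted inhibitor of Wnt and BMP signals, was at 123, 136 and 122 in WT and 965 and 639 in TFoCa (2.62 ± 0.27, adjusted p = 0.00313). Dkk3, of the Dickkopf family, was at 1007, 1239 and 1184 in WT and 4258 and 3642 in TFoCa (1.79 ± 0.17, adjusted p = 0.00269). Frzb, a secreted Frizzled-related protein gene, was at 740, 695 and 806 in WT and 1891 and 1424 in TFoCa (1.14 ± 0.15, adjusted p = 0.0064). All 3 were higher in each TFoCa line, and line 1 was the higher of the pair. The receptor gene Fzd4 was at 350, 354 and 400 in WT and 875 and 850 in TFoCa (1.23 ± 0.17, adjusted p = 0.00793), with the lines of each genotype close together. The firm ligand Wnt5a (0.98 ± 0.15, adjusted p = 0.0101) is named after its values were seen.

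In the hedgehog pathway 3 of 22 genes rose and 0 fell (13.6%, median -0.00), and both firm genes act at the membrane. Cdon, a surface co-receptor of hedgehog ligands that also acts in muscle differentiation, was at 821, 654 and 720 in WT and 1719 and 1809 in TFoCa (1.27 ± 0.13, adjusted p = 0.00311). Disp1, which releases hedgehog ligands from producing cells, was at 1044, 1115 and 1200 in WT and 1854 and 2428 in TFoCa (0.92 ± 0.14, adjusted p = 0.01). Neither gene overlapped between the groups. In the Notch list 2 of 36 rose and 0 fell, near the share of all genes, and none was firm: Jag1, a Notch ligand gene, had a difference of 0.65 ± 0.13 (adjusted p = 0.0214) and Ncstn, a gamma-secretase subunit gene, one of 0.46 ± 0.10 (adjusted p = 0.0332), and without WT replicate 2 the adjusted p was 0.0681 and 0.11.

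Genes for peptides and their receptors rose in 8 of 60 cases and fell in 0 (13.3%, median 0.52), with 3 firm members and 4 rises without WT replicate 1. Penk, which encodes the enkephalin precursor, was at 87.9, 91.3 and 168 in WT and 1852 and 609 in TFoCa (3.25 ± 0.47, adjusted p = 0.00928). Adm, which encodes the vasodilator adrenomedullin, was at 320, 279 and 198 in WT and 763 and 1033 in TFoCa (1.77 ± 0.26, adjusted p = 0.00945). Npr3, the natriuretic peptide clearance receptor gene, was at 176, 246 and 239 in WT and 693 and 594 in TFoCa (1.55 ± 0.24, adjusted p = 0.0111). The groups were separate in all 3, and Penk was far higher in TFoCa line 1 than in line 2.

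Sodium, calcium and TRP channel genes rose in 9 of 67 cases and fell in 1 (13.4% and 1.49%, median 0.23), and 3 rose without WT replicate 1. Cacna1g, a T-type calcium channel gene, was at 4250, 3936 and 4042 in WT and 9881 and 8677 in TFoCa (1.18 ± 0.10, adjusted p = 0.00217). Cacna2d1, an auxiliary calcium channel subunit gene, was at 1993, 1983 and 2029 in WT and 4085 and 3564 in TFoCa (0.93 ± 0.14, adjusted p = 0.0103). Piezo2, a mechanically gated channel gene, was at 386, 412 and 549 in WT and 1960 and 1261 in TFoCa (1.82 ± 0.25, adjusted p = 0.0079). These 3 firm members were higher in both TFoCa lines, line 1 more than line 2. Of 68 potassium channel genes 3 rose and 1 fell (4.41% and 1.47%, median 0.08), below the share of all genes, and Kcnj2, an inward rectifier gene, was firm (59.6, 92.5 and 75.9 in WT, 301 and 326 in TFoCa, 2.05 ± 0.32, adjusted p = 0.0108). Transmitter receptor genes rose in 3 of 53 cases (5.66%, near the share of all genes) and fell in 0, with none firm. The muscle subunit genes Chrna1 (2.79 ± 0.60, adjusted p = 0.0292) and Chrnb1 (1.70 ± 0.30, adjusted p = 0.0149) had the smallest adjusted p values, which were 0.0547 and 0.0586 without WT replicate 2. Of 62 synaptic adhesion genes 1 rose and 1 fell (1.61% each, below the shares of all genes). The latter, Cntnap2, a neurexin family gene, was firm (3524, 3084 and 2835 in WT, 1232 and 1641 in TFoCa, -1.14 ± 0.17, adjusted p = 0.00996).

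Lysosomal and autophagy genes rose in 11 of 57 cases and fell in 0 (19.3%, median 0.22), 5 of them firm, and 5 rose without WT replicate 2. Ctsc, a lysosomal protease gene, was at 401, 475 and 535 in WT and 1164 and 1168 in TFoCa (1.32 ± 0.17, adjusted p = 0.00597). Gaa, the lysosomal enzyme that breaks down glycogen, was at 4787, 5346 and 4787 in WT and 8988 and 11954 in TFoCa (1.06 ± 0.14, adjusted p = 0.00668). Both were separate between groups. Gusb, the beta-glucuronidase gene (0.70 ± 0.11, adjusted p = 0.01), and Cd63, a tetraspanin of late endosomes (0.68 ± 0.10, adjusted p = 0.00918), rose by smaller amounts.

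In the hypoxia and glycolysis list 5 of 42 rose and 2 fell (11.9% and 4.76%, median 0.01), and 4 of the rises were firm, Adm among them. Car9, a carbonic anhydrase gene induced by low oxygen, was at 73.7, 52.6 and 66.7 in WT and 202 and 203 in TFoCa (1.65 ± 0.25, adjusted p = 0.00996). P4ha2 and P4ha1 encode collagen prolyl hydroxylase subunits. P4ha2 was at 1928, 1687 and 1611 in WT and 4839 and 6254 in TFoCa (1.66 ± 0.24, adjusted p = 0.00899), and P4ha1 at 7145, 6073 and 5706 in WT and 12606 and 10680 in TFoCa (0.89 ± 0.14, adjusted p = 0.0102). The firm members thus act in pH control, collagen modification and vessel tone, not in glycolysis. Among 52 glutathione and NRF2 target genes 5 rose and 4 fell (9.62% and 7.69%, median 0.03). Nfe2l2, which encodes NRF2 itself, was at 1555, 1621 and 1581 in WT and 2860 and 2518 in TFoCa (0.76 ± 0.10, adjusted p = 0.00778), and Ephx1, an epoxide hydrolase gene, at 955, 836 and 659 in WT and 2037 and 2101 in TFoCa (1.36 ± 0.17, adjusted p = 0.00558). Ahr, the receptor of dioxin and related ligands, is in no list and was at 440, 615 and 773 in WT and 4962 and 4872 in TFoCa (3.05 ± 0.42, adjusted p = 0.00802). Of 65 transporter genes 7 rose and 0 fell (10.8%). The firm member was Slc40a1, the iron exporter ferroportin (145, 155 and 131 in WT, 433 and 489 in TFoCa, 1.68 ± 0.16, adjusted p = 0.00277). The WT lines were below the TFoCa lines in all of these.

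Of the 15 largest firm rises, those not yet described were Tbx1, Cd34, Vwa2, Car3 and Rassf9. Tbx1, a T-box transcription factor gene of the developing pharynx and cranial muscle, was at 111, 64.0 and 132 in WT and 2227 and 815 in TFoCa (3.77 ± 0.45, adjusted p = 0.00494). Cd34, which encodes a surface sialomucin of vessels and progenitor cells, was at 91.0, 169 and 236 in WT and 928 and 2829 in TFoCa (3.39 ± 0.52, adjusted p = 0.0106). Vwa2, a matrix protein gene, was at 54.9, 107 and 145 in WT and 1530 and 645 in TFoCa (3.37 ± 0.47, adjusted p = 0.00817). Line 1 was the higher in Tbx1 and Vwa2 and line 2 in Cd34, and in each case both were above WT. Car3, a carbonic anhydrase gene of muscle and fat, was at 58.8, 35.5 and 27.6 in WT and 509 and 292 in TFoCa (3.28 ± 0.52, adjusted p = 0.0113), and Rassf9, a Ras association domain gene, at 34.5, 31.7 and 59.8 in WT and 415 and 297 in TFoCa (3.09 ± 0.41, adjusted p = 0.00687). Among genes with a mean of 5000 or more, the largest firm rises besides Igfbp3 and Spp1 were the matrix genes Postn (2.94 ± 0.30, adjusted p = 0.00311), Tnc (2.67 ± 0.23, adjusted p = 0.00207) and Bgn (2.23 ± 0.30, adjusted p = 0.00711).

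**Figure D5:**
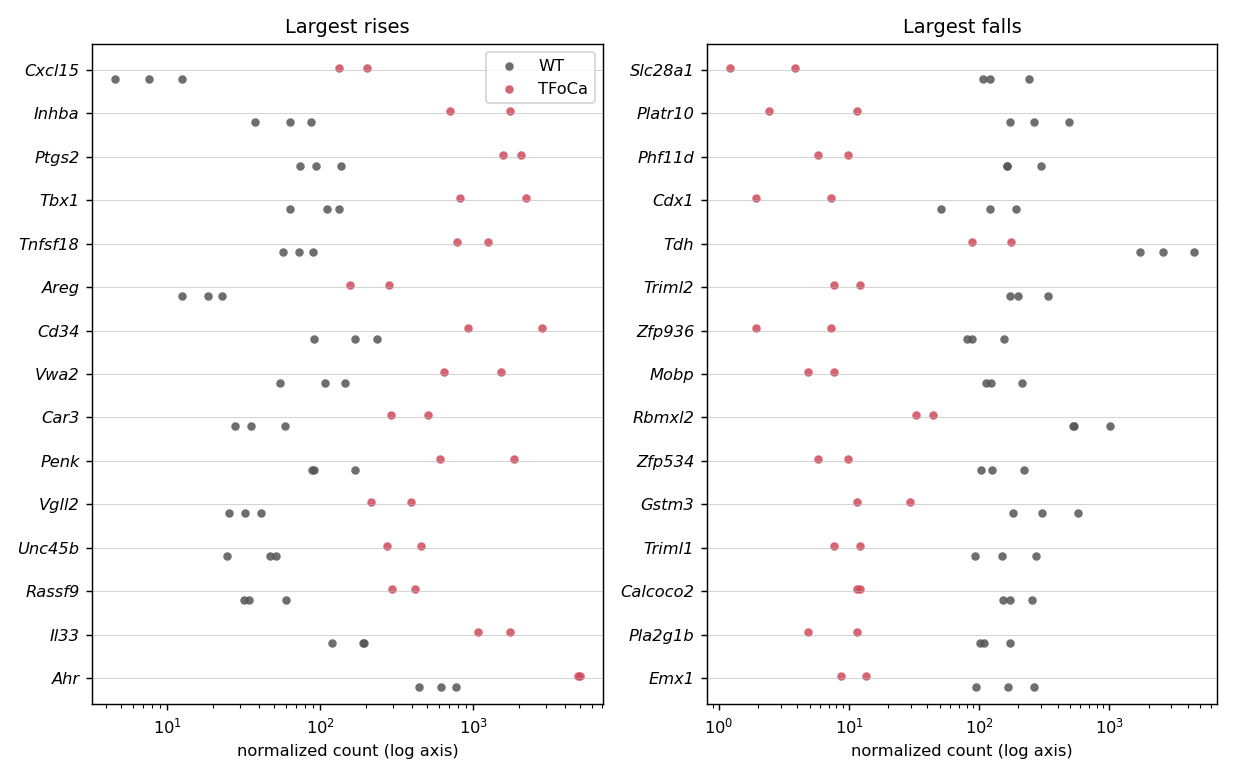
Normalized counts (log axes) of the 15 largest firm rises and 15 largest firm falls outside the pluripotency, cell cycle and matrix lists, in each WT (grey) and TFoCa (red) library. No WT point crosses a TFoCa point in any gene, which holds for every called gene. Ahr shows the closest pair of TFoCa values among the rises, at 4962 and 4872.

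Genes of forebrain patterning were among those that fell. Emx1, a homeobox gene of the dorsal telencephalon, was at 262, 167 and 94.3 in WT and 8.62 and 13.4 in TFoCa (-3.78 ± 0.51, adjusted p = 0.00711). Fgf15, a fibroblast growth factor gene of embryonic brain progenitors, was at 11237, 10826 and 10059 in WT and 1711 and 1143 in TFoCa (-2.93 ± 0.20, adjusted p = 0.00124). Zic2, a zinc finger gene of the forebrain and neural plate, was at 10480, 9642 and 7561 in WT and 3643 and 4686 in TFoCa (-1.15 ± 0.16, adjusted p = 0.00849). The TFoCa lines were below every WT line for all 3, and the WT lines were within a narrow range for Fgf15. Sall3, a zinc finger gene, was the firm member of the ventral forebrain list (2317, 2818 and 3068 in WT, 1218 and 906 in TFoCa, -1.37 ± 0.19, adjusted p = 0.00768). In this list 2 of 32 rose and 4 fell (6.25% and 12.5%, median -0.59), and 1 fell without WT replicate 2. The ventral forebrain genes Nkx2-1 and Lhx6, named after their values were seen, were called higher. Nkx2-1 lay 3.07 and 2.01 log2 units above the WT mean in TFoCa lines 1 and 2, and Lhx6 1.06 and 0.79. Neither was called without WT replicate 2 (adjusted p = 0.128 and 0.15). Metrn, which encodes the secreted neural factor meteorin, was at 6838, 6461 and 5892 in WT and 2394 and 2154 in TFoCa (-1.49 ± 0.10, adjusted p = 0.00124). In the midbrain, hindbrain and spinal list 2 of 51 rose and 3 fell (3.92% and 5.88%), and the firm gene was Egr2, a hindbrain and early response transcription factor (179, 138 and 150 in WT, 399 and 396 in TFoCa, 1.36 ± 0.19, adjusted p = 0.00827).

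The largest firm falls outside the 3 set-aside lists included metabolic and transport genes that were low in both TFoCa lines. Slc28a1, a sodium-coupled nucleoside transporter gene, was at 107, 243 and 122 in WT and 3.83 and 1.22 in TFoCa (-5.50 ± 0.63, adjusted p = 0.00403), from 626 WT and 5 TFoCa reads, so its size is poorly known. Upp1, the uridine phosphorylase gene, was at 1109, 1359 and 927 in WT and 99.6 and 231 in TFoCa (-2.87 ± 0.44, adjusted p = 0.0104). Tdh, threonine dehydrogenase, an enzyme gene highly active in mouse embryonic stem cells, was at 1724, 4489 and 2598 in WT and 88.1 and 176 in TFoCa (-4.43 ± 0.53, adjusted p = 0.00494). WT replicate 2 was the highest line for all 3 genes. It was also the highest for the pluripotent marker Dppa5a, at 4893, 9938 and 5584 in WT and 285 and 310 in TFoCa (-4.44 ± 0.53, adjusted p = 0.00494), and the part of such cells or transcripts in these falls was not tested. Other large firm falls were those of the transcript Platr10 (-5.42 ± 0.77, adjusted p = 0.00853), the tripartite motif family genes Triml2 (-4.41 ± 0.57, adjusted p = 0.0065) and Triml1 (-3.88 ± 0.57, adjusted p = 0.0097), and the zinc finger genes Zfp936 (-4.41 ± 0.67, adjusted p = 0.0102) and Zfp534 (-4.08 ± 0.64, adjusted p = 0.011). WT replicate 2 was the highest WT line for each of these 5 too, and zinc finger genes of this kind have near copies whose reads a gene count may split.

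The remaining genes of the 15 largest falls have mixed roles. Cdx1, a caudal homeobox gene, was at 193, 122 and 50.6 in WT and 1.92 and 7.30 in TFoCa (-4.44 ± 0.67, adjusted p = 0.0101), from 482 WT and 8 TFoCa reads. Mobp, which encodes a myelin protein of oligodendrocytes, was at 112, 213 and 124 in WT and 7.66 and 4.87 in TFoCa (-4.34 ± 0.43, adjusted p = 0.0029). Calcoco2, an autophagy receptor gene, was at 171, 253 and 153 in WT and 11.5 and 12.2 in TFoCa (-3.88 ± 0.40, adjusted p = 0.00313). In each, both TFoCa lines were far below the lowest WT line. Phf11d, a PHD finger gene (-4.56 ± 0.48, adjusted p = 0.00321), Rbmxl2, an RNA-binding protein gene of germ cells (-4.09 ± 0.59, adjusted p = 0.00918), Gstm3, a glutathione transferase gene (-4.03 ± 0.60, adjusted p = 0.00969), and Pla2g1b, a secreted phospholipase gene (-3.87 ± 0.53, adjusted p = 0.00744), completed the group. Gstm3 and Rbmxl2 belong to families with similar members, so their reads may be shared. Among nuclear receptors 3 of 33 rose and 4 fell (9.09% and 12.1%, median 0.16), and the 3 firm genes all fell and all belong to the pluripotency list: Nr0b1 (-3.53 ± 0.48, adjusted p = 0.00725), Esrrb (-3.12 ± 0.46, adjusted p = 0.00942) and Nr5a2 (-3.01 ± 0.43, adjusted p = 0.00883).

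Some genes of RNA splicing, DNA repair and nucleotide synthesis fell, most of the tested members not passing the test. Of 70 splicing factor genes 2 rose and 17 fell (2.86% and 24.3%, median -0.32), of 71 DNA repair genes 0 rose and 12 fell (16.9%, median -0.31), and of 42 nucleotide genes 1 rose and 10 fell (2.38% and 23.8%, median -0.31). Few of these calls were firm (1, 2 and 2 genes), and the numbers lower dropped to 1 splicing and 3 nucleotide genes without WT replicate 3 and to 2 repair genes without WT replicate 2. Snrnp40, a spliceosome protein gene, was at 4023, 3633 and 3609 in WT and 2410 and 2389 in TFoCa (-0.64 ± 0.09, adjusted p = 0.00934). Ung, the glycosylase that removes uracil from DNA, was at 2538, 2589 and 2243 in WT and 898 and 1294 in TFoCa (-1.18 ± 0.18, adjusted p = 0.0107). Lig1, the DNA ligase of replication and excision repair, was at 9141, 8371 and 8384 in WT and 4787 and 5515 in TFoCa (-0.75 ± 0.10, adjusted p = 0.00706). All were lower in both TFoCa lines. Hmgb2, a chromatin protein abundant in dividing cells, was at 25784, 20243 and 21198 in WT and 9756 and 10320 in TFoCa (-1.15 ± 0.13, adjusted p = 0.00408). The summed level of the cell cycle list was 436600 to 484426 in WT and 310025 and 361532 in TFoCa, and its part in these falls was not tested.

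The other lists had at most 1 firm member each. None of 63 primary cilium genes rose or fell by limma with Benjamini-Hochberg adjustment (median -0.01). At an unadjusted p under 0.05 there were 4 higher and 3 lower, edgeR called 0 and DESeq2 called 2 higher and 2 lower. Of 56 ribosome biogenesis genes 0 rose and 3 fell (5.36%, median -0.20), led by Gar1 (-0.59 ± 0.11, adjusted p = 0.0218) and Fbl (-0.53 ± 0.11, adjusted p = 0.0242), and neither was called without WT replicate 2 (adjusted p = 0.0908 and 0.0984). Of 55 protein folding genes 3 rose and 2 fell (5.45% and 3.64%), near the shares of all genes. Of 28 retinoic acid genes 1 rose and 1 fell (3.57% each), and of 22 clock genes 2 rose and 0 fell (9.09%). None of these lists had a firm member. Of 56 genes for small-molecule G protein coupled receptors and RGS proteins 4 rose and 0 fell (7.14%, median 0.36), none firm, led by the adrenergic receptor gene Adra1b (2.29 ± 0.39, adjusted p = 0.0137, and 0.0567 without WT replicate 2). In the epithelial list 4 of 50 rose and 5 fell (8% and 10%, median -0.59), and the firm gene was the desmosomal cadherin Dsc2 (40.8, 46.9 and 41.4 in WT, 297 and 168 in TFoCa, 2.35 ± 0.31, adjusted p = 0.00711). Imprinted genes rose in 6 of 53 cases and fell in 1 (11.3% and 1.89%, median 0.20), with Igf2r alone firm. The median of the amino acid stress list, 0.48, lay between -0.20 and 0.84 when single libraries were left out. Of its 41 genes 0 rose and 1 fell (2.44%).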

How the data were processed

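RNA from 7 neural stem cell lines (3 WT, 2 TFoCa and 2 TMut) was extracted with an Omega EZNA kit and sequenced by Novogene, per the labels and design text. The tools were Trim Galore 0.6.5, STAR 2.7.3a, SAMtools, featureCounts and DESeq2 on genome build mm39, per the submitters' processing notes, and settings and annotation are not given in the sources used here. The deposited values are the authors' normalized counts (signal): the gene count over the DESeq2 size factor of its library. Dividing by the step between low values gave whole reads (to 0.001 read) for 100% of values. In WT replicate 2 the lowest value was not 1 read, so its step came from the gaps between low values. Totals of 33340167 to 62545457 reads in genes exceed the number in the design text. Even numbers made up 70.29% to 79.32% of counts from 1 to 20, so both mates of a pair may have been counted, and count models may then overstate precision.

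Genes with 10 or more in at least 2 libraries were kept. limma 3.58.1 (R 4.3.3, trend on) was run on log2(value + 1), over 3 genotypes together with 4 residual degrees of freedom and two-sided Benjamini-Hochberg adjusted p values. The alternatives were a pseudocount of 8, no filter, a mean of 50 or more, TMM factors, a fit to 2 genotypes, a replicate block, each library left out, and edgeR 4.0.16 and DESeq2 1.42.0 on recovered reads. Tested on simulated data for TFoCa versus WT over 18134 genes, limma recovered 40% of genes changed by 1 log2 unit and 85% of those changed by 2, with 12 false calls.

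The comparison, its gene lists and its rules were chosen with earlier results of these data known. Named by rule are the 15 largest firm rises and 15 largest firm falls with a mean of 100 or more, outside the 3 set-aside lists. The 5 largest firm changes per direction with a mean of 5000 or more are named too. So are up to 4 firm members per list, those with the smallest adjusted p. The rule also takes 2 members of a list with no firm member and 1 marker per cell type. Only some of these are named in the text. Of the 446 firm genes, 11 are predicted genes and are not named. The separate lines are the replicates, and p-values measure the spread between them. Promoter sequences are from RefSeq (GRCm38.p6), which held a window for 70.1% of genes. That build differs from mm39, so no check of promoters over gene sets was made.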

Additional observations from a re-analysis of the deposited data

How the results depend on the processing

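The counts of genes that rose and fell were 952 and 638. They were 980 and 614 with a pseudocount of 8, 1021 and 569 with TMM factors, 988 and 771 in a fit to 2 genotypes and 1113 and 493 with edgeR. DESeq2 called 1689 and 1258, more than 1.5 times as many. With the replicate block the counts were 363 and 192. Same-numbered lines correlated by 0.0192 to 0.185 in their deviations from the group means. Differently numbered lines were not compared, so these values cannot decide whether the numbers are a pairing. Of 95 firm named genes 88 were still called with the block. Leaving out 1 library gave 375 to 1130 rises and 120 to 785 falls. The lowest numbers of rises and of falls both came without WT replicate 2. Of 1350 list counts under an alternative 391 moved by more than 1.5 times, or to or from 0. Under the settings run 0 named genes changed direction. The firm rule required the same direction of the 95 firm ones in most settings, so this adds little. With 2 TFoCa lines, many changes of 1 log2 unit would be missed.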
